A study of Mus musculus with 10 samples.

Results

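The growth hormone and insulin-like growth factor (IGF) axis was followed through 10 of its genes, taken as a fixed list of names from the 24062 genes of the expression table. The list holds the growth hormone receptor gene Ghr, the transcription factor gene Stat5b, the feedback inhibitors Socs2 and Cish, the ligand gene Igf1, its carrier gene Igfals, the binding protein genes Igfbp1, Igfbp2 and Igfbp3, and the receptor gene Igf1r. All 10 were found by symbol, and all 10 passed the filter on low values. The list was chosen with earlier results of these data known, so counts of its genes beside the share of all genes are descriptions.

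Messenger RNA was sequenced from mouse liver tumours and from pooled mouse livers, to ask how a Western diet (WD) and carbon tetrachloride (CCl4), which Cyp2e1 turns into a reactive liver toxin, act alone and together. The 2 tumour libraries came from 1 mouse each, exposed to Western diet plus CCl4 over 24 weeks, and are labelled hepatocellular carcinoma. The 8 liver libraries were pools of 4 mice each, 1 pool per combination of diet, treatment and duration: Western diet with CCl4, normal diet (ND) with CCl4, Western diet with the oil vehicle and normal diet with oil, each at 12 and 24 weeks. The labels give no strain, sex, age or genotype.

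Growth hormone from the pituitary binds its receptor on hepatocytes, which activates STAT5B, and STAT5B in turn switches on Igf1, Igfals, Socs2 and Cish. Liver is the main source of circulating IGF-1, most of which travels in blood in a complex with IGFBP3 and the acid labile subunit encoded by Igfals. In rodents the sex-specific rhythm of growth hormone release also sets the male or female pattern of many liver genes.

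Libraries held 23206229 to 30137802 reads, and each value is a normalised read count: the reads of a gene times 1 constant for its library. The constants follow library totals and a scaling factor of 0.847 to 1.153. No condition had a replicate pool, so the pools of 12 and 24 weeks of a combination served as repeats, and the p-values measure the spread between these pools and not between animals. No hepatocyte marker was at 0 in any library. The 10 hepatocyte markers together made up 12.6% to 29.2% of the signal in the tumours, 11.2% to 13.6% in the 4 CCl4 pools and 13.9% to 16.5% in the 4 oil pools. The 10 stellate cell and fibroblast markers summed to 403 and 859 in the tumours, 613 to 1296 in CCl4 pools and 216 to 473 in oil pools, and the 10 macrophage markers to 903 and 915 in the tumours, 898 to 1393 in CCl4 pools and 380.0 to 796 in oil pools. The 10 endothelial markers summed to 265 and 302 in the tumours, 260.3 to 392 in CCl4 pools and 218 to 303 in oil pools, and the 10 bile duct markers to 399 and 843 in the tumours, 142 to 606 in CCl4 pools and 52.2 to 89.8 in oil pools. No marker of the stellate, endothelial or macrophage lists was at 0 in any library.

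Sequence around the start of transcription was examined for the sites that the axis is known to use. RefSeq promoter windows of GRCm38.p6, each 250 bases before to 50 bases after a start, were matched for 9 of the 10 genes in 14 windows, and Socs2 had none. STAT5 binds the motif TTCNNNGAA, which is its own reverse complement, so each match counts on both strands. The Cish window held 2 matches, at 1 and 12 bases from the start, and Igfals held 1 match in each of 2 of its 3 windows, at -236 and -58. These stretches are shown because Cish and Igfals were the only members with a match, and the motif stands in capitals.
Cish, chr9:107296655-107296684, plus strand: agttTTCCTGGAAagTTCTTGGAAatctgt
Igfals, chr17:24877599-24877628, plus strand: atctataatTTCTCAGAAaagaggctgagg
Igfals, chr17:24878163-24878192, plus strand: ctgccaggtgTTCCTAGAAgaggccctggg
At least 1 match stood in 8.3% of the 32851 mouse windows, and 2 or more matches, as in Cish, in 0.457%. The windows of Ghr, Igf1, Igf1r, Igfbp1, Igfbp2, Igfbp3 and Stat5b held none. Igfbp1 is repressed by insulin through a FOXO-bound element, and CAAAACAA, a part of that element, was searched on both strands (its reverse complement is TTGTTTTG) and is in capitals here, 108 bases before the start.
Igfbp1, chr11:7197657-7197746, plus strand: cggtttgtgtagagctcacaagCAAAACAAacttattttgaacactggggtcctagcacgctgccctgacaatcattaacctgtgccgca
These letters, on either strand, occurred in 2.51% of all windows, and the whole element was not searched. A match describes the letters of the window and is not a measured binding site.

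Ghr, on chromosome 15 at 3317760 to 3583492 (GRCm38, GENCODE M21, minus strand), encodes the receptor through which growth hormone acts on hepatocytes. Its normalised read counts were 196 and 150.0 in tumours 1 and 2, 553 and 349.9 with Western diet and CCl4 (12 and 24 weeks, the order used in each pair of pools), 507 and 356 with normal diet and CCl4, 668 and 572 with Western diet and oil, and 645 and 719 with normal diet and oil. Both tumours lay below every liver pool, and all 4 CCl4 pools lay below all 4 oil pools. Here and for the genes below, the share of all tested genes that separate groups in this way was not counted. Stat5b, on chromosome 11 at 100780731 to 100850724 (minus strand), encodes the signal transducer that the receptor activates. It had normalised counts of 67.6 and 52.4 in the tumours, 65.0 and 63.5 in the WD CCl4 pools, 65.6 and 63.9 in the ND CCl4 pools, 95.8 and 89.9 in the WD oil pools, and 92.9 and 65.8 in the ND oil pools. The liver pools spanned only 1.51-fold, with the 24-week normal-diet oil pool, at 65.8, close to the 4 CCl4 pools and the other 3 oil pools higher. Tumour 1 lay within the range of the livers and tumour 2 below it.

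Socs2, on chromosome 10 at 95385362 to 95417180 (minus strand), encodes a suppressor that STAT5 induces and that dampens the receptor. Socs2 counts were 3.05 and 2.91 in the tumours, 11.7 and 10.3 in the WD CCl4 pools, 13.2 and 9.41 in the ND CCl4 pools, 8.59 and 9.23 in the WD oil pools, and 20.6 and 4.12 in the ND oil pools. The 2 unexposed pools held both the highest and the lowest liver value, 5.0-fold apart, on 464 reads at 12 weeks and 90 at 24 weeks, while the tumours were lower than all livers. Cish, on chromosome 9 at 107296026 to 107302784 (plus strand), encodes a related STAT5-induced inhibitor of cytokine receptors. For Cish the counts were 2.23 and 11.4 in the tumours, 27.7 and 13.3 in the WD CCl4 pools, 7.52 and 5.97 in the ND CCl4 pools, 12.6 and 15.6 in the WD oil pools, and 22.5 and 10.5 in the ND oil pools. Both normal-diet CCl4 pools lay below the other 6 liver pools, tumour 1 was the lowest library, and tumour 2 lay within the range of the livers.

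Igf1, on chromosome 10 at 87858265 to 87937042 (plus strand), encodes the growth factor that liver releases in response to growth hormone. Its counts were 50.1 and 127 in the tumours, 517 and 378 in the WD CCl4 pools, 467 and 372 in the ND CCl4 pools, 543 and 584 in the WD oil pools, and 582 and 598 in the ND oil pools. The 8 liver pools spanned 1.61-fold with the CCl4 pools below the oil pools, and both tumours were far below them. Igfals, on chromosome 17 at 24865997 to 24882010 (plus strand), encodes the acid labile subunit, which hepatocytes make and which holds IGF-1 in the blood complex. Igfals counts were 26.2 and 9.28 in the tumours, 73.0 and 40.5 in the WD CCl4 pools, 78.0 and 36.6 in the ND CCl4 pools, 116 and 92.8 in the WD oil pools, and 136 and 120.2 in the ND oil pools. The liver pools spanned 3.73-fold, the CCl4 and oil pools did not overlap, and the tumours were the lowest of all libraries.

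**Figure D1:**
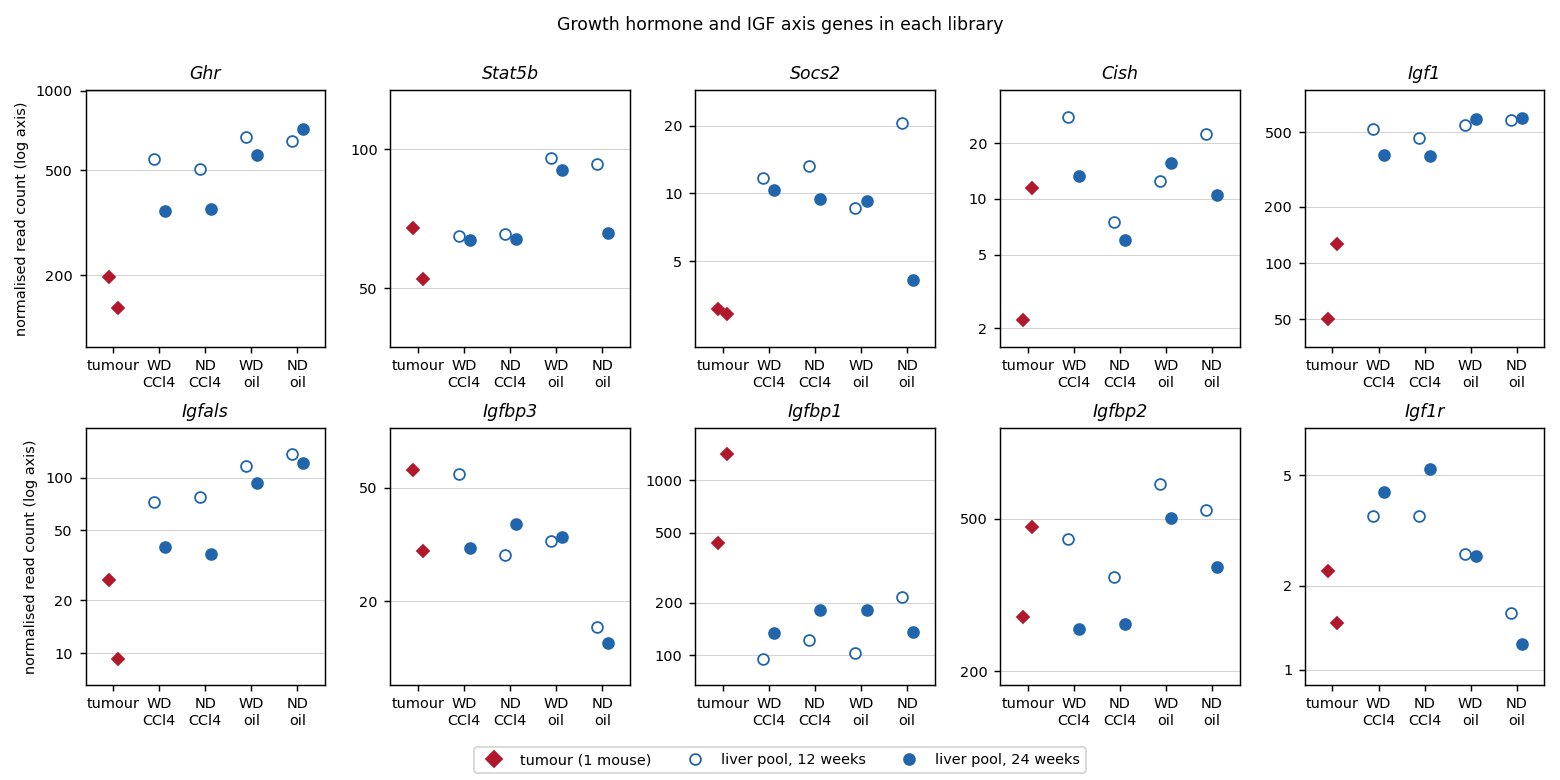
Normalised read counts of the 10 genes in each library, by group with tumours on the left and normal diet with oil on the right; each point is 1 library on a log axis (open circles 12-week pools of 4 mice, filled circles 24-week pools, diamonds tumours). Ghr, Igf1 and Igfals are lowest in the tumours and lower in CCl4 pools than in oil pools, Igfbp1 is highest in the tumours, and Socs2 and Cish differ widely between libraries of 1 group.

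Igfbp1, on chromosome 11 at 7197782 to 7202546 (plus strand), encodes a hepatocyte binding protein that rises in fasting and is repressed by insulin. It had 440.1 and 1412 in the tumours, 95.2 and 135 in the WD CCl4 pools, 123 and 181 in the ND CCl4 pools, 103 and 182 in the WD oil pools, and 216 and 135 in the ND oil pools. Both tumours exceeded the highest liver pool, at 216, while treatments and diets overlapped among the livers. Igfbp2, on chromosome 1 at 72824503 to 72852474 (plus strand), encodes a hepatocyte binding protein that lowers free IGF, and had the highest level per kilobase of exon among the 10 genes in the livers. The Igfbp2 counts were 277 and 474 in the tumours, 442 and 259 in the WD CCl4 pools, 352 and 267 in the ND CCl4 pools, 615 and 502 in the WD oil pools, and 526 and 375 in the ND oil pools. The 24-week oil pools were below the 12-week oil pools, as the 24-week CCl4 pools were below the 12-week CCl4 pools, and the tumours lay within the liver range.

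Igfbp3, the neighbour of Igfbp1 at 7206086 to 7213923 on the minus strand, encodes the main carrier of IGF-1 in blood; in rat liver it is made mostly by cells other than hepatocytes. Igfbp3 gave 57.7 and 30.0 in the tumours, 56.0 and 30.8 in the WD CCl4 pools, 29.2 and 37.4 in the ND CCl4 pools, 32.7 and 33.7 in the WD oil pools, and 16.3 and 14.3 in the ND oil pools. The normal-diet oil pools were the lowest of all libraries, and the CCl4 pools overlapped the Western diet oil pools. Igf1r, on chromosome 7 at 67952827 to 68233668 (plus strand), encodes the receptor for IGF-1, which adult hepatocytes carry at very low levels. Igf1r counts were 2.27 and 1.48 in the tumours, 3.57 and 4.37 in the WD CCl4 pools, 3.58 and 5.28 in the ND CCl4 pools, 2.61 and 2.56 in the WD oil pools, and 1.60 and 1.24 in the ND oil pools. All 4 CCl4 pools exceeded all 4 oil pools, on 27 to 178 reads per liver pool, and the tumours lay within the range of the oil pools. The 24-week normal-diet oil value, 1.24, had an exact 95% Poisson interval of 0.814 to 1.80, which covers counting error only.

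Levels were also taken as normalised reads per kilobase of exon, with all annotated exons of a gene merged (GENCODE M21). The annotation used to count reads is not given, so genes compare only roughly on this scale. Median levels over the 8 liver pools were 221 for Igfbp2, 88.5 for Igfbp1, 62.1 for Ghr, 53.5 for Igf1, 27.0 for Igfals, 11.9 for Stat5b, 10.1 for Igfbp3, 2.01 for Cish, 1.04 for Socs2 and 0.184 for Igf1r. The ranges over the 8 pools overlapped between neighbours in this order, except for Igfbp3 and Cish and for Socs2 and Igf1r.

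With CCl4 on a normal diet, the genes for the growth hormone receptor, ligand and carrier fell, as did Igfbp2 and Cish, and Igfbp3 and Igf1r rose. Ghr fell by 0.68 ± 0.19 (log2 fold change ± standard error of the fit, 2 pools against 2; limma, Benjamini-Hochberg adjusted p = 0.0302), Igf1 fell by 0.50 ± 0.16 (adjusted p = 0.0486) and Igfals fell by 1.24 ± 0.20 (adjusted p = 0.00357). Igfbp2 fell by 0.53 ± 0.14 (adjusted p = 0.0243) and Cish fell by 1.09 ± 0.30 (adjusted p = 0.0279). Igfbp3 rose by 1.06 ± 0.24 (adjusted p = 0.0134) and Igf1r rose by 1.15 ± 0.22 (adjusted p = 0.00666). Stat5b (-0.27, adjusted p = 0.178), Igfbp1 (-0.19, adjusted p = 0.654) and Socs2 (0.21, adjusted p = 0.748) did not pass the threshold of 0.05. In all, 7 of the 10 genes were called, 2 higher and 5 lower, where 26.0% of 12648 tested genes were called, 15.3% higher and 10.6% lower. The median change was -0.38 over the 10 genes, against 0.00414 over all tested genes.

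The count rested on single pools. It was 4 without the 12-week normal-diet oil pool, 2 without the 24-week one, 3 without the 12-week normal-diet CCl4 pool, 1 without the 24-week one and 4 without the 24-week Western diet oil pool. Igfals stayed called whichever of the 8 pools was left out, Igf1r in 6 of these 8 fits, Igfbp3 in 5, Cish in 4, Ghr and Igfbp2 in 3 each and Igf1 in 2. Leaving out a Western diet pool changes the spread of the fit and not these estimates, so such fits add no support. Cish, Igfbp2 and Igf1 kept their call only in fits of that kind, and lost it without any of the pools compared. The count was also 1 with no filter on low values, 4 with quantile normalization, 3 with no duration term and 0 with all 10 libraries in 1 fit. Socs2 turned with the oil pool chosen, at 1.16 (adjusted p = 0.0137) without the 12-week normal-diet oil pool and -0.74 (adjusted p = 0.0876) without the 24-week one, and Igfbp1 in the same 2 fits gave 0.45 (adjusted p = 0.0606) and -0.84 (adjusted p = 0.0179). Hepatocyte markers moved in the same comparison: their mean log2 difference, normal-diet CCl4 against oil, was -0.63 at 12 weeks and -0.70 at 24 weeks, and 4 of the 10 fell. Relative to that mean, Ghr stood at 0.28 and -0.31, Igf1 at 0.31 and 0.01, Igfbp2 at 0.05 and 0.21, and Igfals at -0.17 and -0.99. In pooled tissue, fewer hepatocytes and less RNA per hepatocyte cannot be told apart. Markers of other cells moved with the rise of Igfbp3 and Igf1r, with 9 of 10 stellate, 8 of 10 macrophage and 4 of 10 endothelial markers higher, and their part in the result was not tested.

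Western diet with CCl4 was set against the same normal-diet oil pools, and 4 of the 10 genes passed. Igfals fell by 1.22 ± 0.20 (adjusted p = 0.00340) and Ghr fell by 0.63 ± 0.19 (adjusted p = 0.0383), while Igfbp3 rose by 1.39 ± 0.24 (adjusted p = 0.00397) and Igf1r rose by 1.04 ± 0.22 (adjusted p = 0.00945). These 4 calls, 2 higher and 2 lower, compare with 25.9% of all tested genes, 15.7% higher and 10.2% lower. Igf1 gave -0.42 ± 0.16 (adjusted p = 0.0870) and Igfbp2 -0.39 (adjusted p = 0.0676), and both passed without the 12-week Western diet CCl4 pool, at -0.61 (adjusted p = 0.0332) and -0.58 (adjusted p = 0.0205). Without the 24-week Western diet CCl4 pool only Igfals and Igfbp3 were called, and these 2 stayed called whichever pool was left out. Ghr lost its call without either normal-diet CCl4 pool, either Western diet oil pool, the 24-week normal-diet oil pool or the 24-week Western diet CCl4 pool. Igf1r lost its call without the 24-week normal-diet oil pool or the 24-week Western diet CCl4 pool. Cish gave 0.30 (adjusted p = 0.478), Igfbp1 -0.59 (adjusted p = 0.166), Stat5b -0.28 (adjusted p = 0.161) and Socs2 0.19 (adjusted p = 0.772). The hepatocyte marker mean differed by -0.48 and -0.76 at 12 and 24 weeks, and 9 of 10 stellate and 9 of 10 macrophage markers were higher; their part in the result was not tested.

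When CCl4 was added to a Western diet, Igfals fell by 0.92 ± 0.20 (adjusted p = 0.0327) and Igfbp2 fell by 0.71 ± 0.14 (adjusted p = 0.0239). These were the 2 members called, where 6.82% of all tested genes were called, with 2.52% called lower. Both calls were lost without either Western diet oil pool or the 24-week Western diet CCl4 pool. Stat5b gave -0.52 ± 0.14 (adjusted p = 0.0563), Ghr -0.49 (adjusted p = 0.153) and Igf1 -0.35 (adjusted p = 0.221). The hepatocyte marker mean differed by -0.29 and -0.58, and relative to it Igfals stood at -0.38 and -0.60 and Igfbp2 at -0.19 and -0.38. In the same comparison 7 of 10 stellate markers (list median 0.835), 4 of 10 macrophage markers (0.793) and 1 of 9 tested bile duct markers were higher, and the part of these markers was not tested. This comparison and the one before share the Western diet CCl4 pools.

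Western diet alone, against normal diet with oil, called none of the 10 genes by limma, where 1.99% of all tested genes were called. At an unadjusted p under 0.05 there were 3, Igfbp2, Igfbp3 and Igf1r. Igfbp3 was closest, at 1.07 ± 0.24 (adjusted p = 0.0647). DESeq2 called Igfbp3 (adjusted p = 0.00129) and edgeR called none. With 1 of the 8 pools left out, the limma value of Igfbp3 ran from 0.94 to 1.20. Leaving out a CCl4 pool changes the spread of the fit and not this estimate, so such fits add no support. The 2 Igfbp3 values with Western diet and oil, 32.7 and 33.7, lay above the 2 with normal diet and oil, 16.3 and 14.3. In the same comparison 5 of 10 stellate and 2 of 10 macrophage markers rose, and their part in the Igfbp3 values was not tested. Adding Western diet to CCl4 also called none by limma or edgeR, where 0.0474% of tested genes were called; 1 gene, Cish, had an unadjusted p under 0.05, at 1.39 ± 0.30 (adjusted p = 0.271), and DESeq2 called it (adjusted p = 0.000756). The difference between the CCl4 effects on the 2 diets was largest for Cish as well, at 1.52 ± 0.42 (adjusted p = 0.346 by limma and 0.0295 by DESeq2); limma and edgeR called none of the 10, 1 had an unadjusted p under 0.05, and 0.103% of tested genes were called. Effects that passed on 1 diet and not the other, that of Cish among them, are therefore not shown to differ between diets by limma or edgeR.

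**Figure D2:**
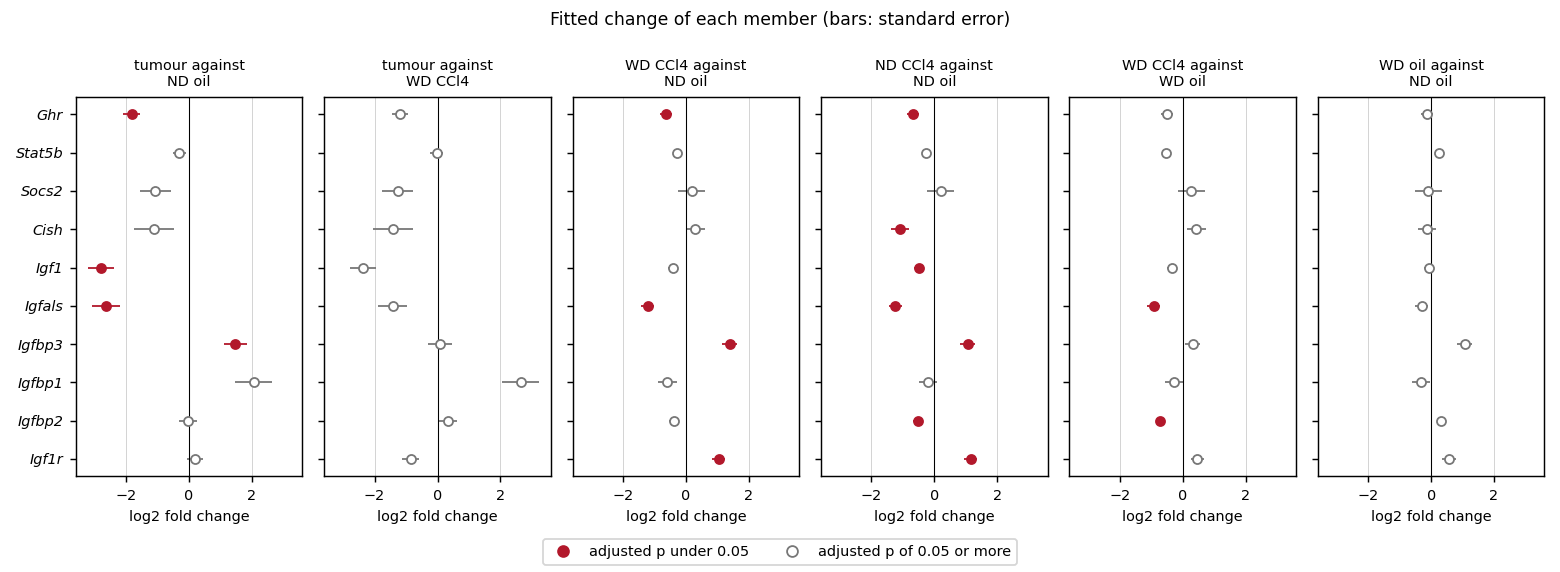
Log2 fold changes of the 10 genes with their standard errors in each comparison; filled points passed an adjusted p of 0.05 by limma. Igfals passed as lower in all 3 comparisons of CCl4 with oil pools, Igfbp3 and Igf1r passed as higher with CCl4 against normal diet with oil, and in tumours against Western diet CCl4 livers Igf1 (-2.38) and Igfbp1 (2.64) lie farthest from 0 but are open points.

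The durations were compared over the 4 combinations. No member was called by limma at 24 against 12 weeks, nor was any of the 12648 genes (0% called, 1475 at an unadjusted p under 0.05, with 1 gene by edgeR and 90 by DESeq2). Among the 10 genes, 4 had an unadjusted p under 0.05, and DESeq2 called Igfbp2 (limma -0.49 ± 0.098, adjusted p = 0.334; DESeq2 adjusted p = 0.00727) and Igfals (limma -0.60 ± 0.14, adjusted p = 0.334; DESeq2 adjusted p = 0.0271), whereas edgeR called none. Cish gave -0.51 and Ghr -0.31.

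The receptor, ligand and carrier values were lower at 24 than at 12 weeks in every CCl4 pool. The ratio of 24 to 12 weeks for Ghr was 0.633 with Western diet and CCl4 and 0.703 with normal diet and CCl4, against 0.856 and 1.12 with oil on the same diets. For Igf1 the ratios were 0.732 and 0.796 with CCl4, against 1.08 and 1.03 with oil, and for Igfals they were 0.554 and 0.469 with CCl4, against 0.798 and 0.881 with oil. Each ratio rests on 1 pool per time. The difference itself, the change over time in CCl4 pools minus that in oil pools, was a comparison added after the values were seen. It was -0.70 ± 0.15 for Igfals (unadjusted p = 0.00187, adjusted p = 0.238), -0.46 ± 0.15 for Igf1 (adjusted p = 0.339) and -0.55 ± 0.18 for Ghr (adjusted p = 0.340) by limma. No member was called by limma, edgeR or DESeq2, 3 had an unadjusted p under 0.05, and 0.0553% of tested genes were called. For Igfals the difference was -0.82 without the 12-week or without the 24-week Western diet CCl4 pool. These 2 fits give 1 and the same estimate. The Western diet CCl4 pool that remains has no partner and adds nothing to it, so it rests on the normal-diet CCl4 pools and the oil pools.

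**Figure D3:**
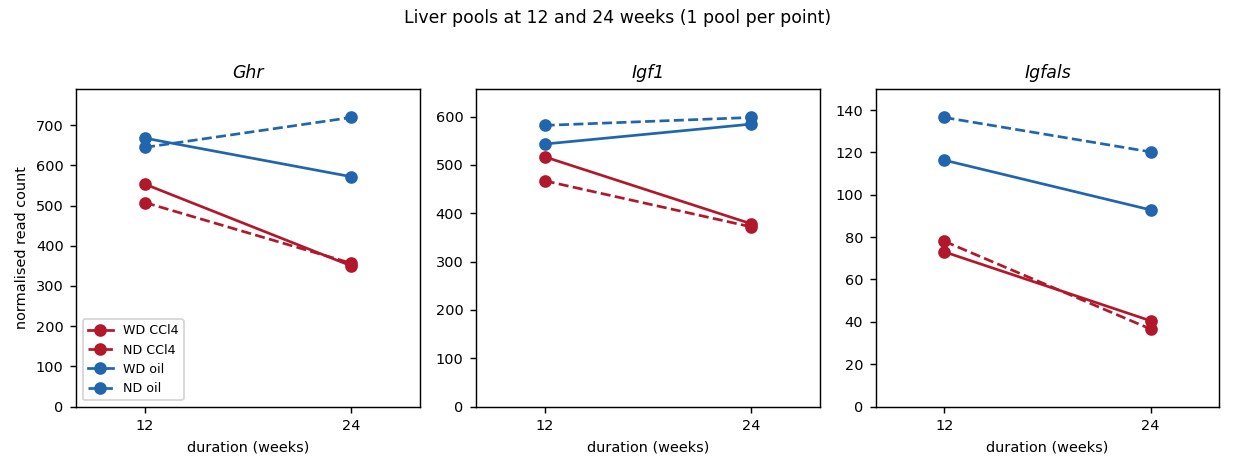
Normalised read counts of Ghr, Igf1 and Igfals at 12 and 24 weeks, 1 pool per point; red lines are CCl4 pools and blue lines oil pools, solid for Western diet and dashed for normal diet. All 6 CCl4 lines slope down, with 24-week values at 0.469 to 0.796 of the 12-week values, while the Igf1 oil lines are nearly flat.

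Tumours were set against the Western diet CCl4 livers. Igf1 was at 50.1 and 127 in the tumours, against 517 and 378 in those livers, and Igfbp1 was at 440.1 and 1412, against 95.2 and 135. The tumours and livers did not overlap in either gene, but how many of all tested genes separate this way was not counted. By limma Igf1 gave -2.38 ± 0.42 (2 tumours against 2 pools, adjusted p = 0.0518), Igfbp1 2.64 ± 0.58 (adjusted p = 0.0854), Ghr -1.20 ± 0.26 (adjusted p = 0.0854), Igfals -1.43 ± 0.46 (adjusted p = 0.183) and Igf1r -0.86 ± 0.26 (adjusted p = 0.169). None of the 10 was called by limma or edgeR, where limma called 0.972% of tested genes; 6 had an unadjusted p under 0.05, and DESeq2 called 3, Igf1, Igfbp1 and Ghr. Socs2 gave -1.27 ± 0.50 (adjusted p = 0.255), Cish -1.42 ± 0.63 (adjusted p = 0.316), Igfbp2 0.34 (adjusted p = 0.605), Igfbp3 0.08 (adjusted p = 0.939) and Stat5b -0.03 (adjusted p = 0.966).

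The 2 tumours differed from each other. Without tumour 1, limma called 6 genes, Igf1 (-1.71), Igfbp1 (3.48), Ghr (-1.39), Igfals (-2.13), Igf1r (-1.06) and Igfbp2 (0.73), and without tumour 2 it called 4, Igf1 (-3.04), Igfbp1 (1.80), Ghr (-1.01) and Cish (-2.39). In each of these fits the lone tumour was assumed to vary like the pools. The mean log2 difference of the 10 hepatocyte markers was -0.19 in tumour 1 and 0.89 in tumour 2 against the 12-week Western diet CCl4 pool, with 7 and 2 of the 10 markers lower, and 0.20 and 1.29 against the 24-week pool, with 3 and 2 lower. Relative to the mean against the 12-week pool, Igf1 stood at -3.15 and -2.91 in tumours 1 and 2, Ghr at -1.30 and -2.77, and Igfals at -1.25 and -3.74. Relative to the mean against the 24-week pool, Igf1 stood at -3.09 and -2.85, Ghr at -1.03 and -2.50, and Igfals at -0.81 and -3.30. Of the other marker lists, 1 of 10 stellate markers fell, Lum (-2.19, adjusted p = 0.0416), and no endothelial, macrophage or bile duct marker was called by limma. Their part in the result was not tested.

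Against normal diet with oil, a comparison added after the values were seen, 4 members were called in the tumours. Igf1 fell by 2.79 ± 0.42 (limma adjusted p = 0.00850), Ghr fell by 1.83 ± 0.26 (adjusted p = 0.00728), Igfals fell by 2.65 ± 0.46 (adjusted p = 0.0136) and Igfbp3 rose by 1.47 ± 0.38 (adjusted p = 0.0488), where 10.6% of tested genes were called, 6.06% higher and 4.59% lower. Igfbp1 gave 2.05 ± 0.58 (adjusted p = 0.0652). The count was 2, Igf1 and Ghr, without the 12-week normal-diet oil pool and 0 without the 24-week one. Igfbp3 lost its call when any 1 liver pool was left out (adjusted p up to 0.395), and Igfbp1 passed without tumour 1 (adjusted p = 0.000703) or tumour 2 (adjusted p = 0.0354). The hepatocyte marker mean differed by -0.67 and -0.56 in tumour 1 against the 12-week and 24-week oil pools and by 0.42 and 0.53 in tumour 2, so its sign differed between the tumours. Higher here were 4 of 10 stellate, 3 of 10 macrophage and 2 of 9 tested bile duct markers, and no hepatocyte or endothelial marker was called by limma; the part of these markers in the result was not tested. This comparison mixes tissue, diet and treatment, which cannot be told apart, and its tumours are those of the comparison above.

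The balance of Igfbp1, Igfbp2 and Igfbp3 was read per kilobase of exon. Igfbp1 made up 63.2% and 77.7% of the summed level of Igfbp1, Igfbp2 and Igfbp3 in tumours 1 and 2, against 16.4% to 43.2% in the 8 liver pools. Igfbp2 was the largest share in every liver pool, at 52.5% to 81.05%, and came to 32.8% and 21.5% in the tumours. The summed level of the 3 genes over that of Igf1 was 90.3 and 93.1 in the tumours, against 4.90 to 7.49 in the livers. These shares and ratios leave out Igfbp4, so they do not describe all binding protein genes of the liver. Igfbp4 had normalised counts of 933 and 1400 in tumours 1 and 2 and 1121 to 1387 in the 8 liver pools, above Igfbp2 in every library. The shares and ratios were not tested.

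**Figure D4:**
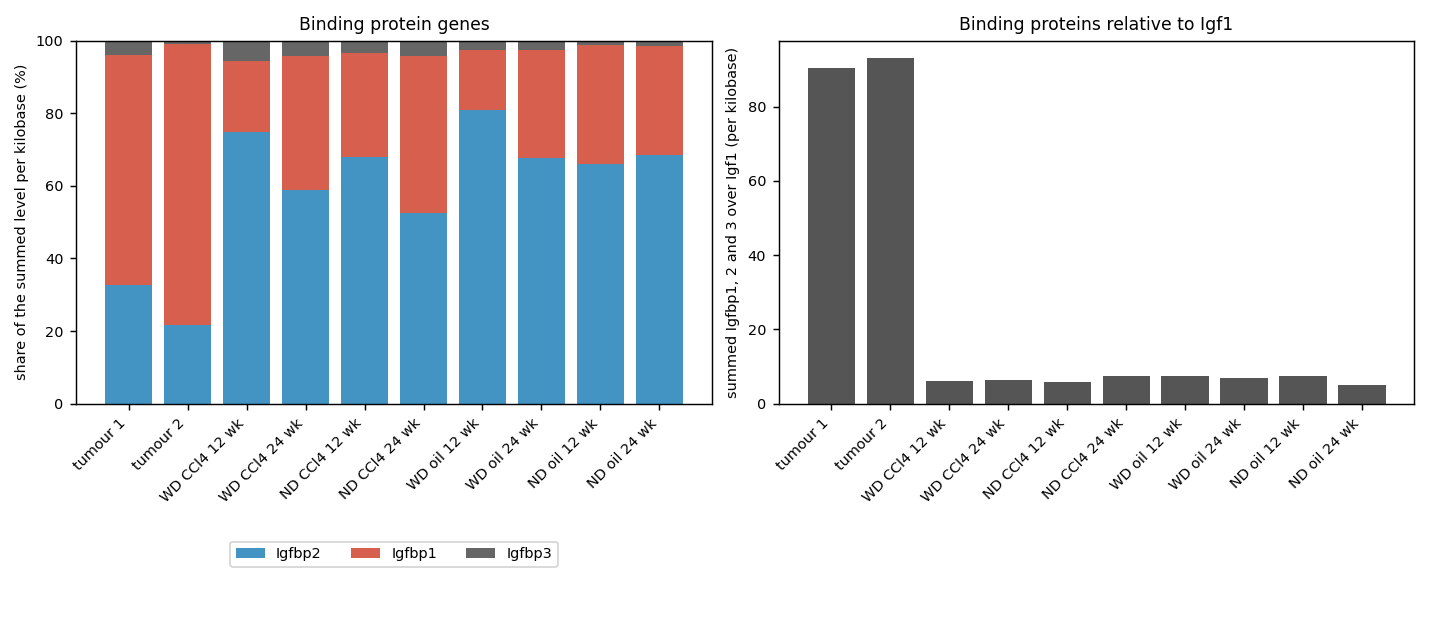
Left, share of Igfbp2, Igfbp1 and Igfbp3 in their summed level per kilobase of exon, in percent, in each library; right, that summed level over the level of Igf1. Among these genes, Igfbp1 is the largest share only in the 2 tumours, and Igfbp4 is not included. The ratio to Igf1 is 90.3 and 93.1 in the tumours, against 4.90 to 7.49 in the livers.

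Other genes of growth hormone signalling were counted from a list of 18, of which 17 passed the filter. With CCl4 on normal diet 4 rose and 3 fell, where 26.0% of all tested genes were called, and the list's median was -0.05. Prlr, the prolactin receptor gene, had normalised counts of 11.7 and 16.0 in the tumours, 51.5 and 39.4 in the WD CCl4 pools, 53.1 and 44.5 in the ND CCl4 pools, 128 and 95.2 in the WD oil pools, and 108 and 97.1 in the ND oil pools. It fell by 1.06 ± 0.11 with CCl4 on normal diet (adjusted p = 0.000603), fell by 1.27 with CCl4 on Western diet (adjusted p = 0.00102) and fell by 1.50 ± 0.19 in tumours against Western diet CCl4 livers (adjusted p = 0.0209), where it was the 1 listed gene called. Egfr, the epidermal growth factor receptor gene, which growth hormone induces in mouse liver, fell by 1.17 ± 0.20 (adjusted p = 0.00452) with CCl4 on normal diet. Sirpa, which encodes a phagocyte surface receptor that JAK2 can phosphorylate, rose by 2.02 ± 0.12 (adjusted p = 5.86e-05) in the same comparison and by 1.43 with Western diet alone (adjusted p = 0.00161).

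Of 18 other genes of the IGF system, 13 passed the filter, and with CCl4 on normal diet 4 rose and 2 fell, where 15.3% of all tested genes were called higher and 10.6% lower. Igfbp7, a matrix-associated protein with low affinity for IGFs, rose by 1.18 ± 0.19 (adjusted p = 0.00317), and Grb10, an adaptor that inhibits the insulin and IGF-1 receptors, rose by 0.86 (adjusted p = 0.0384). With Western diet and CCl4, against normal diet with oil, 5 rose and 1 fell, where 15.7% of all tested genes were called higher and 10.2% lower. Among them was Igf2, the fetal growth factor gene, called at a limma adjusted p of 0.00896. It had 6.14 and 1.92 in Western diet CCl4 pools against 0.133 and 0.229 in normal-diet oil pools, where 0.133 equals the floor of 3 reads. Igf2 reached the filter value of 1 only in these Western diet CCl4 pools and in tumour 1 (1.09). It was thus tested only because of the group where it is high, and its call adds nothing to these values. Irs1, an adaptor of the insulin and IGF-1 receptors, fell by 0.88 ± 0.14 with CCl4 on Western diet (adjusted p = 0.0110), the 1 listed gene called there. None of the 13 was called in tumours against Western diet CCl4 livers by limma.

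Genes with a sex-biased level in mouse liver, many of them set by growth hormone and STAT5B, were counted as well. The lists were chosen with earlier results of these data known, so their counts describe the listed genes and test nothing about the lists. Of 20 male-biased genes, 19 fell with CCl4 on normal diet (median -2.64), 8 fell with Western diet alone (median -1.60), 20 fell with both (median -3.27) and 9 fell with CCl4 on Western diet (median -1.62); none rose in these comparisons. Of all tested genes, 10.6% with CCl4 on normal diet, 10.2% with both exposures and 2.52% with CCl4 on Western diet were called lower, and 1.99% with Western diet alone were called in either direction. The medians of all tested genes lay between -0.0188 and 0.0205. Hsd3b5, a male-biased steroid dehydrogenase gene, had normalised counts of 0.156 and 0.272 in the tumours, 2.92 and 0.230 in the WD CCl4 pools, 26.2 and 0.0297 in the ND CCl4 pools, 30.8 and 8.16 in the WD oil pools, and 290.0 and 207 in the ND oil pools. It fell by 5.54 with CCl4 on normal diet and fell by 3.85 with Western diet alone. Mup7, a major urinary protein gene, fell by 5.43 with CCl4 on normal diet and fell by 8.02 with both exposures; Mup genes share near-identical copies, and how reads were divided among them is not given in the sources used here. Of 23 female-biased genes 13 passed the filter, and 8 rose and 2 fell with CCl4 on normal diet (median 1.42). With Western diet alone 3 rose and 3 fell (median 0.425), with both exposures 9 rose and 2 fell (median 1.46), and with CCl4 on Western diet 4 rose and 1 fell (median 0.703). Of all tested genes, 15.3% with CCl4 on normal diet and 15.7% with both exposures were called higher. With CCl4 on Western diet 6.82% were called in either direction. In tumours 0 female-biased genes rose and 2 fell against Western diet CCl4 livers, and 1 rose and 2 fell against normal diet with oil. Of the 20 male-biased genes, 0 and 16 fell in the same 2 comparisons. Of all tested genes, 0.972% were called in either direction against Western diet CCl4 livers. Against normal diet with oil, 6.06% were called higher and 4.59% lower. Cyp2a4, a female-biased steroid hydroxylase gene with a near-identical copy, rose by 3.65 with CCl4 on normal diet, with 12.6 and 28.1 in normal-diet CCl4 pools against 1.29 and 0.0915 in normal-diet oil pools. Among the female-biased genes tested, Cyp2c69 reached the filter value of 1 only in the normal-diet oil pools (2.13 and 1.46). Cyp2c40 reached it only there (4.97 and 1.97) and in tumour 2 (1.94), and Sult2a2 only in the tumours (1.21 and 8.07). They were thus tested only because of the groups where they are high. A fall or rise of these genes against or in those groups adds nothing to their values. Sex is not in the labels, so the direction is given relative to the oil pools alone.

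Regulators that act with STAT5B on these targets were a list of 8. Of these, 7 passed the filter, and 2 rose and 1 fell with CCl4 on normal diet, beside the 26.0% of all tested genes called there. Bcl6, a male-enriched repressor that opposes STAT5 mainly at female-biased genes in mouse liver, fell by 1.07 ± 0.21 with Western diet and CCl4 against normal diet with oil and fell by 1.66 with CCl4 on Western diet (adjusted p = 0.00508). Igfbp1 is also a target of insulin, FOXO1 and the integrated stress response. Of 12 genes of insulin and FOXO signalling none was called in tumours against Western diet CCl4 livers, where 0.972% of all tested genes were called. The list's median was -0.553, against -0.00267 over all tested genes. Pck1, the gluconeogenic enzyme gene, had 390 and 908 in the tumours against 3798 and 2916 in those livers (-2.46 ± 0.46, limma adjusted p = 0.0562). Of 10 stress response genes, with a median of 1.15, 1 was called there, Psat1, a serine synthesis enzyme gene. Psat1 rose by 2.45 ± 0.32 (limma adjusted p = 0.0209) and had 14.4 and 25.6 in the tumours against 1.77 and 3.22 in those livers.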

How the data were processed

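RNA from flash-frozen liver was made into poly-A-selected TruSeq libraries from 200 ng of total RNA, per the labels' protocols. Reads were aligned with STAR to mm10, per the submitters' processing notes, which give no versions. Not given in the sources used here is how reads were counted, by strand or not, with which annotation, and how they were scaled. The authors deposited 1 normalised signal per gene and library. At least 99.99% of a library's values were whole numbers of reads (within 0.01 reads) times 1 constant, so reads were recovered. The scale was log2(value + 1). A gene needed a value of 1 or more in 2 or more of 10 libraries, which 12648 met. The test was limma 3.58.1 in R 4.3.3 (two-sided, eBayes with trend), fitting a mean for each diet and treatment plus a duration term: 3 residual degrees of freedom over the 8 pools, 4 with the tumours. The Benjamini-Hochberg adjustment ran over all tested genes, with a threshold of 0.05. A fold change on this scale understates that of low genes.

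The 10 genes are always named; from each of 12 other lists up to 4 called genes of largest change per comparison may be named, or the 2 of smallest p where fewer than 2 were called. Members and lists were chosen with earlier results of these data known. Of 169 list entries, 167 matched by symbol and 2 by an older symbol. The settings varied were the pseudocount (0.1), the filter (none, or at 10), quantile normalization, median-ratio size factors, no duration term, no trend, other sets of libraries in the fit, leaving out each library, and the tool, with recovered reads tested in edgeR 4.0.16 and in DESeq2 1.42.0. Tumours against normal diet with oil and the effect of CCl4 on the change over time were added after seeing the data. Zero values of single bile duct markers are not reported here. Coordinates are from GENCODE M21 (GRCm38) and sequences from RefSeq (GRCm38.p6).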

Additional observations from a re-analysis of the deposited data

Results flagged for a closer look

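In 2 genes the diet difference had opposite signs at the 2 durations in both treatments. For Ghr, Western minus normal diet was 0.05 with oil and 0.12 with CCl4 at 12 weeks, and -0.33 with oil and -0.03 with CCl4 at 24 weeks, on the log2(value + 1) scale. For Socs2 it was -1.17 with oil and -0.16 with CCl4 at 12 weeks, and 1.0 with oil and 0.12 with CCl4 at 24 weeks. The oil differences of Socs2 rest on the normal-diet oil pools, at 20.6 and 4.12 normalised reads, the highest and lowest of the 8 liver pools. Each value compares 1 pool with 1 pool, and the difference between durations was not tested.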

How the results depend on the processing

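The 17 calls of single members were recomputed under 312 alternatives in all; 212 kept their call, 100 kept their direction without it and 0 changed sign, and 3 calls held whichever library was left out (Igfals with CCl4 on normal diet, and Igfals and Igfbp3 with Western diet and CCl4 against normal diet with oil). Leaving out 1 library gave counts of members called of 1 to 7 for CCl4 on normal diet, 0 to 1 for Western diet alone, 2 to 6 for both exposures, 0 to 3 for CCl4 on Western diet, 0 to 6 for tumours against Western diet CCl4 livers, 0 to 6 for tumours against normal diet with oil and 0 to 1 for the effect of CCl4 on the change over time. For CCl4 on normal diet (7 called) the count was 1 with no filter, 4 with quantile normalization, 3 with no duration term, the fit with no replicate block, and 0 with all 10 libraries in 1 fit. For both exposures (4 called) it was 2 with no filter, 2 with quantile normalization and 0 with all 10 libraries. For CCl4 on Western diet (2 called) it was 0 with no filter, quantile normalization, no duration term, no trend or all 10 libraries. For tumours against Western diet CCl4 livers (0 called) it was 2 with quantile normalization, 3 with no duration term and 3 by DESeq2. DESeq2 also called 1 member for Western diet alone, 1 for Western diet added to CCl4, 1 for the difference between diets and 2 for duration, where limma called 0. The causes were not tested. Igfbp1 with CCl4 on normal diet, at -0.19, changed sign to 0.0055 with quantile normalization, and its values with 1 library left out ran from -0.84 to 0.45; those of Socs2 ran from -0.74 to 1.16. Igfbp2 in tumours against Western diet CCl4 livers, at 0.34, ran from -0.044 without tumour 2 to 0.73 without tumour 1. For a difference between liver pools of 2 combinations, leaving out a pool of another combination changed the spread of the fit and not the estimate. Labels share no replicate numbers, and the duration is the only term that joins pools. The fit without it could not be run for duration or for the effect of CCl4 on the change over time. Median-ratio factors differed from the authors' scaling by at most 0.02 on the log2 scale. Igf1r, Socs2 and Cish had the lowest median counts over the livers, so counting error is largest for them. The 12- and 24-week normal-diet oil pools still differed beyond it. Their exact 95% Poisson intervals were 18.8 to 22.5 and 3.31 to 5.06 for Socs2, and 20.6 to 24.5 and 9.16 to 11.9 for Cish. With 1 pool per condition, animal-to-animal spread was not measured.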

Other observations

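The genes whose pattern over the 8 liver pools was nearest to a member's were found by the root mean square difference of centred log2 values, over 6324 genes with a mean at or above the median, and are given as a description. For Igf1 they were Fbxl4 (0.0467), Phyhd1 (0.0524), Entpd8 (0.0583), Mccc2 (0.0604) and Amacr (0.0610), where the median gene stood at 0.252 and Ghr ranked 483 at 0.140. For Igfbp2 they were 0610031O16Rik (0.111), Klf12 (0.114), Nox4 (0.116), Cps1 (0.117) and Cat (0.120), with a median of 0.403. For Igfbp1 the nearest were Tgfa (0.210) and Pde4b (0.220), with a median of 0.429. Socs2 had no near neighbour on this scale: Zfp609 (0.346) and Smurf1 (0.353) came first, against a median of 0.582 and 0.548 for a flat pattern.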
